A study of Homo sapiens with 4 samples.

Results

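The 10 genes described here encode the classical AP-1 transcription factors (FOS, FOSB, FOSL1, FOSL2, JUN, JUNB and JUND), the related factor ATF3, and EGR1 and IER3, which like several of the others are switched on early by growth factors and stress. They were taken by gene symbol from a table of raw read counts, and all 10 of them are among its 43714 genes. The cells were MDA-MB-231, a human breast cancer cell line of mesenchymal appearance that lacks the oestrogen and progesterone receptors and HER2 amplification. All had been transfected with the plasmid 7TGP, whose EGFP gene is driven by 7 TCF sites and serves as a readout of Wnt/beta-catenin transcription, and had been selected with puromycin at 3 ug/mL. From that population, 8 rounds of sorting and regrowth gave MDA-MB-2317TGP-POS, the reporter-positive line with over 80% EGFP-positive cells, and MDA-MB-2317TGP-NEG, the reporter-negative control line with over 95% EGFP-negative cells. Both were grown in DMEM with 10% serum. RNA was sequenced in 2 reporter-positive and 2 reporter-negative libraries, and the comparison is between the lines.

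AP-1 is a dimer of basic leucine zipper proteins that binds the DNA sequence TGACTCA. JUN proteins can pair with each other or with FOS proteins, while FOS proteins need a JUN partner. FOS and FOSB carry strong activation domains that FOSL1 (also called FRA-1) and FOSL2 (FRA-2) lack, and FOSL1 is known as a prominent AP-1 member of mesenchymal, triple-negative breast cancer cells. FOS, FOSB, JUNB, EGR1 and IER3 are typical immediate early genes, whose transcripts rise within minutes of serum or growth factor and decay quickly, so their level depends on when cells were last fed. The time between feeding and harvest is not given in the sources used here.

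The libraries held 62539034 and 55894092 counts in the reporter-positive line and 63034563 and 58429705 in the reporter-negative line. Whether the pair of libraries from each line stems from independent cultures is not given in the sources used here, and p-values therefore speak only of the variation among these 4 libraries, which may be technical. Each line is a single sorted population, and any other difference between the populations cannot be told apart from reporter activity. Levels are given in CPM, counts scaled to library size with TMM factors (edgeR). The mesenchymal identity of the cells could be seen in VIM, CD44, AXL, CAV1 and MSN, all 5 of which were above 100 CPM in every library. Of genes thought absent or low in these cells, CDH1, the E-cadherin gene, and PGR stayed under 1 CPM. The others did not. ERBB2, the HER2 gene, had 63.8 and 64.3 CPM in the reporter-positive and 81.0 and 81.1 CPM in the reporter-negative libraries. ESR1, the oestrogen receptor gene, had 6.18 and 5.38, and 5.06 and 4.88 CPM. EPCAM had 4.49 and 4.68, and 4.74 and 4.57 CPM. VIM itself, the vimentin gene, had 1257 and 1343 CPM in the reporter-positive and 2714 and 2625 CPM in the reporter-negative libraries. CAV1 was also lower in both reporter-positive libraries, while CD44 and MSN were higher in both and AXL overlapped between the lines. Among markers of other cell types, KRT5 and CD3E were at or near 0 in every library, but others were not. The basal factor TP63 had 19.6 and 18.9 CPM in the reporter-positive and 5.21 and 5.29 CPM in the reporter-negative libraries. The summed level of the 5 basal or myoepithelial markers was 38.4 and 38.1 CPM in the reporter-positive and 29.1 and 28.9 CPM in the reporter-negative libraries. Of these markers, MYH11 and ACTA2 went the other way from TP63. MYH11 had 12.9 and 13.9 CPM in the reporter-positive and 16.1 and 17.0 CPM in the reporter-negative libraries. ACTA2 had 5.81 and 4.90 CPM in the reporter-positive and 7.73 and 6.48 CPM in the reporter-negative libraries. The endothelial marker PECAM1 had 75.9 and 58.9 CPM in the reporter-positive and 88.9 and 73.0 CPM in the reporter-negative libraries, which overlapped. KDR, another endothelial marker, had 8.31 and 9.22 CPM in the reporter-positive and 5.92 and 7.44 CPM in the reporter-negative libraries. The summed level of the 8 luminal epithelial markers was 559 and 607 CPM in the reporter-positive and 774 and 814 CPM in the reporter-negative libraries, most of it KRT8 and KRT19. Mitochondrial genes took 0.477% and 0.280% of counts in the reporter-positive and 0.556% and 0.770% in the reporter-negative libraries, which did not overlap. The part of such differences in the results below was not tested.

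The 10 genes did not share a direction. In the reporter-positive line FOSL2 rose 1.35-fold and FOSL1 fell to 0.794 of its reporter-negative level. IER3 rose 1.68-fold. ATF3 rose 1.32-fold, on a call that several other settings did not keep. The RNA is from bulk cultures, so fewer cells with a transcript and less of it per cell cannot be told apart. The other 6 genes, among them all 3 JUN genes, did not pass. All 10 genes were kept by the filter on low counts, so the count is 3 higher, 1 lower and 6 not passing (edgeR's quasi-likelihood test, Benjamini-Hochberg adjusted p under 0.05 over 30952 genes). Across all genes tested, 11.6% were called higher, 10.9% lower and 22.4% in either direction. Calls were a larger share of the 22016 genes with at least 1 CPM in 2 libraries, where 3476 were higher and 3349 lower. With scaling to total counts 36.0% of all calls were in the higher direction, against 51.5% with TMM. The median log2 fold change of the 10 genes was 0.24, beside -0.0046 for all genes tested. The libraries of the lines did not overlap for 8 of the 10 genes, with 6 above and 2 below in reporter-positive cells. Of all genes tested, 57.7% did not overlap, 28.2% with both reporter-positive libraries above and 29.5% with both below.

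**Figure D1:**
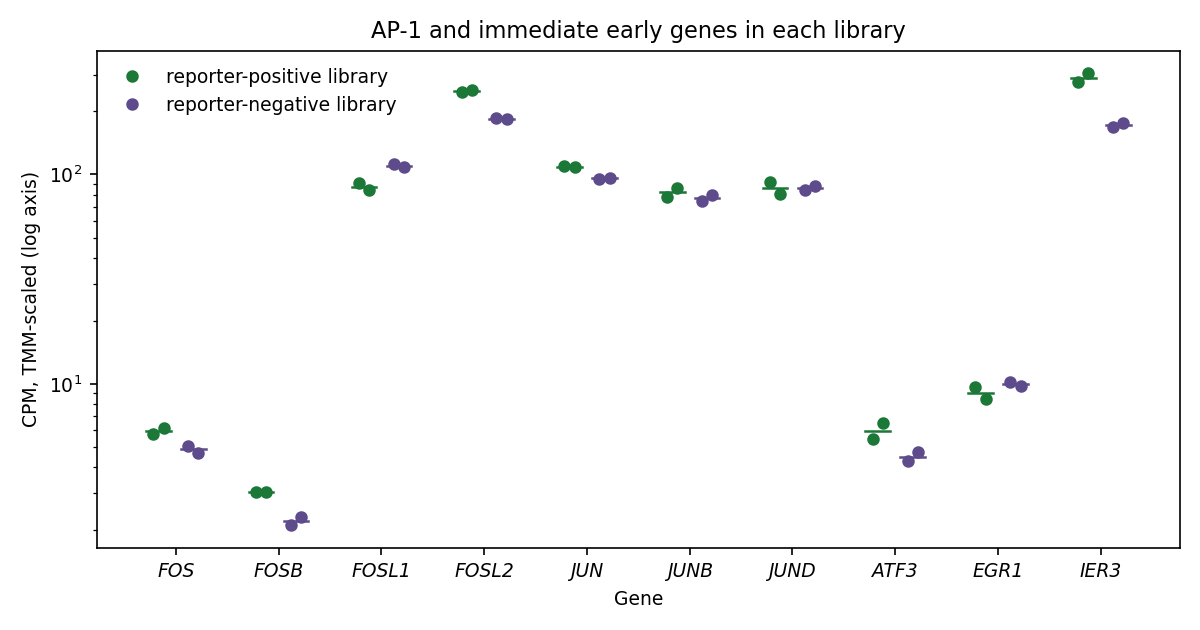
Level of each of the 10 genes in CPM (log axis), with 1 point per library, reporter-positive left and reporter-negative right, and bars at the mean of 2 libraries. FOSL2 and IER3 lie above and FOSL1 below their reporter-negative points, while the points of JUNB and JUND are mixed.

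FOSL1 (ENSG00000175592, chromosome 11, 65892049 to 65900573 on GRCh38, reverse strand) overlapped no other listed gene. Its level was 90.7 and 84.3 CPM in the reporter-positive libraries, against 112 and 108 CPM in the reporter-negative libraries. Both reporter-positive libraries were thus below both reporter-negative ones. The means were 87.5 ± 4.51 and 110.2 ± 3.05 CPM (SD, n = 2 each), giving a log2 fold change of -0.33 (SE 0.07; edgeR quasi-likelihood, Benjamini-Hochberg adjusted p = 0.00193). Without the reporter-negative library numbered 1 the log2 fold change was -0.30 and the call was lost (edgeR quasi-likelihood, Benjamini-Hochberg adjusted p = 0.111). The neighbourhood of FOSL1 was also on the low side. The 123 tested genes within 1 Mb of it had a median log2 fold change of -0.16, and 22.0% of them fell while 2.44% rose, beside 10.9% and 11.6% of all genes. The part of this in the lower FOSL1 level was not tested.

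FOSL2 (ENSG00000075426, chromosome 2, 28392448 to 28417312, forward strand) had 248 and 253 CPM in the reporter-positive libraries and 185 and 184 CPM in the reporter-negative libraries. The libraries of a line lay close together and those of the lines were well apart. The means were 250.2 ± 3.70 and 185 ± 0.787 CPM (SD, n = 2 each), with a log2 fold change of 0.44 (SE 0.07; edgeR quasi-likelihood, Benjamini-Hochberg adjusted p = 0.000121). The gene passed in 12 of 12 other settings that could be run for it. Among them is the fit with overlapping genes' counts taken away, which was added after the data were seen. The fit to genes without an overlapping gene leaves FOSL2 out. FOSL2-AS1, a noncoding gene on the opposite strand that shares 2225 bases of span with the start of FOSL2, rose too, to 36.9 ± 1.05 CPM in the reporter-positive line against 25.4 ± 0.541 CPM in the reporter-negative line (SD, n = 2 each). Reads were counted at each gene whose span they overlap, on either strand, so reads of the 2 genes cannot be told apart where they overlap. With the counts of FOSL2-AS1 and of a small intronic gene taken away, FOSL2 still rose 1.34-fold, at 213 ± 4.39 and 158 ± 1.06 CPM (SD, n = 2 each) in the reporter-positive and reporter-negative line. The 30 tested genes within 1 Mb had a median log2 fold change of -0.04.

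FOS and FOSB, the FOS-family genes with strong activation domains, were far less abundant. FOS (ENSG00000170345, chromosome 14, 75278774 to 75282230) had 5.73 and 6.18 CPM in the reporter-positive libraries and 5.04 and 4.69 CPM in the reporter-negative libraries. FOSB (ENSG00000125740, chromosome 19, 45467995 to 45475179) had 3.04 and 3.05 CPM in the reporter-positive and 2.11 and 2.31 CPM in the reporter-negative libraries. Both genes were higher in both reporter-positive libraries, but neither passed. The log2 fold change of FOS was 0.29 with a 95% interval of 0.01 to 0.57 (edgeR quasi-likelihood, Benjamini-Hochberg adjusted p = 0.135). That of FOSB was 0.46 with a 95% interval of 0.09 to 0.84 (edgeR quasi-likelihood, Benjamini-Hochberg adjusted p = 0.0701). These intervals are for single genes and are not adjusted for the number of genes. FOSB lies wholly within the span of ERCC1, a DNA repair gene on the opposite strand with which it shares no exon, so some FOSB counts may be intronic reads of ERCC1. ERCC1 had 82.8 ± 3.40 CPM in the reporter-positive and 81.7 ± 0.177 CPM in the reporter-negative line (SD, n = 2 each).

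To compare genes with one another, levels were divided by the summed length of their exons. On this scale FOSL1 and FOSL2 together made up nearly the whole of the FOS family in both lines. FOSL1 accounted for 56.6% and 54.2% of the family's level in the reporter-positive libraries and for 68.2% and 67.5% in the reporter-negative libraries. FOSL2 accounted for 40.7% and 42.8% in the reporter-positive and for 29.6% and 30.3% in the reporter-negative libraries. These shares are free of the scaling between libraries, and those of the lines did not overlap. The share of FOSL1 was lower by 12.4 percentage points on average in the reporter-positive line, at 55.4% ± 1.68 against 67.8% ± 0.477 (SD, n = 2 each; exact two-sided permutation test p = 0.333, the smallest that 2 against 2 libraries allow). The summed level of the family was similar, at 85.0 and 82.5 CPM per kb in the reporter-positive libraries and 87.3 and 84.8 CPM per kb in the reporter-negative libraries, with the libraries of the lines overlapping. Counts cover introns as well as exons. Divided by whole gene spans, FOSL1 accounted for 46.9% and 44.4% of the family in the reporter-positive and 58.9% and 58.2% in the reporter-negative libraries. FOSL2 then had 43.9% and 45.7%, and 33.3% and 34.0%. Without division by length FOSL1 had 26.1% and 24.3% in the reporter-positive and 36.9% and 36.1% in the reporter-negative libraries. FOSL2 then led, with 71.3% and 73.0%, and 60.8% and 61.6%. Which gene led thus depended on length. The FOSL1 share was lower in the reporter-positive line each time, but no choice of length could have given another direction. FOSL1 was lower, and FOSL2, FOS and FOSB were each higher, in both reporter-positive libraries, so the lower share restates these differences.

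**Figure D2:**
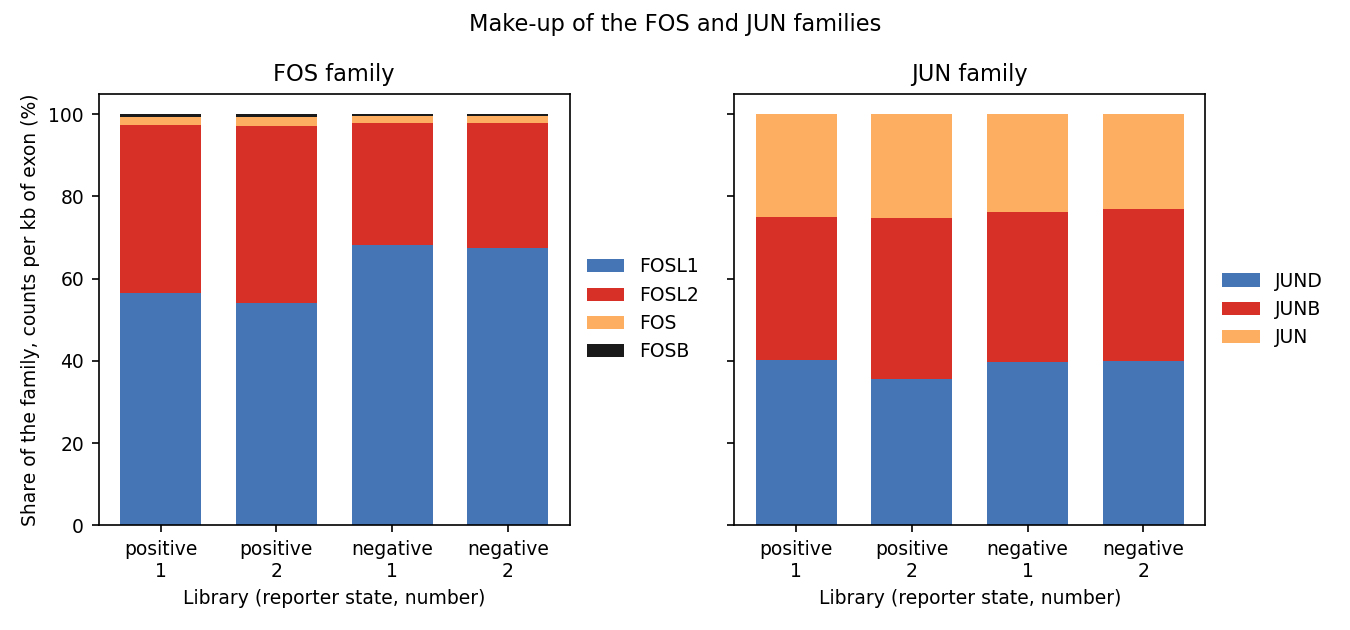
Share of each gene in the summed level of its family (%, counts per kb of exon), with 1 bar per library and the reporter-positive libraries on the left. FOSL1 makes up 56.6% and 54.2% of the FOS family in the reporter-positive and 68.2% and 67.5% in the reporter-negative libraries, with FOSL2 taking most of the rest, while the JUN family keeps a similar make-up.

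None of the JUN genes passed in the reported fit. JUN (ENSG00000177606, chromosome 1, 58780788 to 58784327), whose product is the partner of FOS proteins in the best studied AP-1 dimer, had 109.3 and 108.9 CPM in the reporter-positive libraries and 95.6 and 96.3 CPM in the reporter-negative libraries. The difference was small and the libraries of a line were close together, with a log2 fold change of 0.19 (SE 0.07, 95% interval 0.04 to 0.33; edgeR quasi-likelihood, Benjamini-Hochberg adjusted p = 0.0655). JUN passed in 4 of 12 other settings, DESeq2 among them (DESeq2, Benjamini-Hochberg adjusted p = 0.0443). The unadjusted p was 0.0159 in edgeR.

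JUNB (ENSG00000171223, chromosome 19, 12791496 to 12793315), a JUN paralogue that activates many AP-1 targets less strongly than JUN, had 77.7 and 86.5 CPM in the reporter-positive libraries and 75.0 and 79.7 CPM in the reporter-negative libraries. JUND (ENSG00000130522, chromosome 19, 18279760 to 18281622), the JUN paralogue least dependent on growth factors, had 92.1 and 80.7 CPM in the reporter-positive libraries and 84.0 and 88.1 CPM in the reporter-negative libraries. For both genes the libraries of the lines overlapped, and the reporter-positive libraries were further apart from each other than the reporter-negative ones. The 95% interval of the log2 fold change was -0.07 to 0.24 for JUNB and -0.15 to 0.17 for JUND, and the sign of both depended on the scaling (edgeR quasi-likelihood, Benjamini-Hochberg adjusted p = 0.490 and 0.968). On omitting reporter-positive library number 1, JUNB had a log2 fold change of 0.17 and passed (edgeR quasi-likelihood, Benjamini-Hochberg adjusted p = 0.0333). Reads of overlapping genes matter for JUNB too, which lies within the span of HOOK2, an adaptor gene of microtubule transport on the opposite strand, which had 280.6 ± 6.26 CPM in the reporter-positive and 297 ± 4.31 CPM in the reporter-negative line (SD, n = 2 each), and 259 exon bases of JUNB overlap exons of HOOK2.

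Within the JUN family, JUN made up 25.1% and 25.3% of the level per kb of exon in the reporter-positive libraries and 23.8% and 23.0% in the reporter-negative libraries (exact two-sided permutation test p = 0.333, the smallest possible with these libraries). The JUN family made up 59.1% and 59.6% of the level of all 7 FOS and JUN genes in the reporter-positive libraries and 56.5% and 58.2% in the reporter-negative libraries (exact two-sided permutation test p = 0.333). This last difference depended on how length was treated: without division by length the shares were 44.6% and 44.4% in the reporter-positive and 45.5% and 46.9% in the reporter-negative libraries, in the other direction.

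Among the FOS and JUN genes, reporter-positive levels per kb of exon ran from JUND at 46.4 ± 4.33, FOSL1 at 46.4 ± 2.39 and JUNB at 45.1 ± 3.45 CPM per kb, which did not differ beyond their spread, to FOSL2 at 35.0 ± 0.517, JUN at 30.8 ± 0.0735, FOS at 1.84 ± 0.0986 and FOSB at 0.549 ± 0.00159 CPM per kb (SD, n = 2 each). In the reporter-negative line FOSL1 stood first at 58.4 ± 1.62, followed by JUND at 46.2 ± 1.55, JUNB at 42.5 ± 1.82, JUN at 27.1 ± 0.148, FOSL2 at 25.8 ± 0.110, FOS at 1.5 ± 0.0766 and FOSB at 0.398 ± 0.0257 CPM per kb (SD, n = 2 each). FOSL2 thus stood above JUN in the reporter-positive and below it in the reporter-negative line. FOSL1, FOSL2 and FOS have introns, whose reads are counted too, whereas JUN, JUNB and JUND are single-exon genes, so these orders hold only for counts per kb of exon.

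ATF3 (ENSG00000162772, chromosome 1, 212565334 to 212620777), a basic leucine zipper factor induced by many stresses that pairs with JUN proteins and often represses, had 5.43 and 6.49 CPM in the reporter-positive libraries and 4.28 and 4.71 CPM in the reporter-negative libraries. The reporter-positive libraries were the higher ones but differed from each other by more than the reporter-negative ones. The means were 5.96 ± 0.749 and 4.49 ± 0.298 CPM (SD, n = 2 each), for a log2 fold change of 0.40 (SE 0.14; edgeR quasi-likelihood, Benjamini-Hochberg adjusted p = 0.0445). The call is a weak one: it was made in 6 of 12 other settings, with adjusted p from 0.00294 to 0.310. It was lost with DESeq2 (DESeq2, Benjamini-Hochberg adjusted p = 0.0968), with limma-voom (Benjamini-Hochberg adjusted p = 0.059) and with scaling to total counts (edgeR quasi-likelihood, Benjamini-Hochberg adjusted p = 0.17). The same happened on omitting reporter-positive library number 2 (edgeR quasi-likelihood, Benjamini-Hochberg adjusted p = 0.258), reporter-negative library number 1 (adjusted p = 0.310 by the same edgeR test) or reporter-negative library number 2 (adjusted p = 0.107 by the same edgeR test). The 27 tested genes within 1 Mb of ATF3 had a median log2 fold change of 0.15. Of them, 5 rose and 0 fell, or 18.5% and 0%, beside 11.6% and 10.9% of all genes. This did not hold in a wider window. Of the 87 tested genes within 5 Mb, 7 rose and 9 fell, or 8.05% and 10.3%, with a median of 0.06.

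EGR1 (ENSG00000120738, chromosome 5, 138465490 to 138469315), a zinc finger factor and an early responder to ERK signalling, had 9.66 and 8.47 CPM in the reporter-positive libraries and 10.2 and 9.72 CPM in the reporter-negative libraries. Its libraries did not overlap between lines, but by a narrow margin, and the log2 fold change was -0.13 with a 95% interval of -0.36 to 0.09 (edgeR quasi-likelihood, Benjamini-Hochberg adjusted p = 0.441). It passed in 0 of 12 other settings. Its unadjusted p was 0.227.

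IER3 (ENSG00000137331, chromosome 6, 30743199 to 30744554, reverse strand), a stress-inducible gene known as a target of NF-kappaB and a modulator of cell survival, showed the largest change of the 10. It had 276 and 304 CPM in the reporter-positive libraries and 169 and 176 CPM in the reporter-negative libraries, well apart. The means were 290.2 ± 19.8 and 173 ± 5.47 CPM (SD, n = 2 each), for a log2 fold change of 0.75 (SE 0.08, edgeR quasi-likelihood, Benjamini-Hochberg adjusted p = 3.35e-07). IER3 passed in 12 of 12 other settings, among them the later added fit with overlapping genes' counts taken away. The fit to genes without an overlapping gene leaves it out. IER3-AS1, which overlaps IER3 on the opposite strand, had 93.8 ± 9.33 CPM in the reporter-positive and 55.7 ± 3.36 CPM in the reporter-negative line (SD, n = 2 each). It shares 394 bases of span and 359 exon bases with IER3, so its counts may be reads of IER3. They equalled 31.6% and 33.0% of the IER3 counts in the reporter-positive and 31.6% and 32.9% in the reporter-negative libraries. With these counts taken away IER3 had 196 ± 10.5 CPM in the reporter-positive and 117 ± 2.11 CPM in the reporter-negative line (SD, n = 2 each). The rise was again 1.68-fold, but taking away so even a share could hardly change it, so this cannot separate the 2 genes. Of 119 tested genes within 1 Mb of IER3, 5 rose, 32 fell and the others did not pass, or 4.2% and 26.9% in the passing directions, beside 11.6% and 10.9% of all genes. Their median log2 fold change was -0.15.

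**Figure D3:**
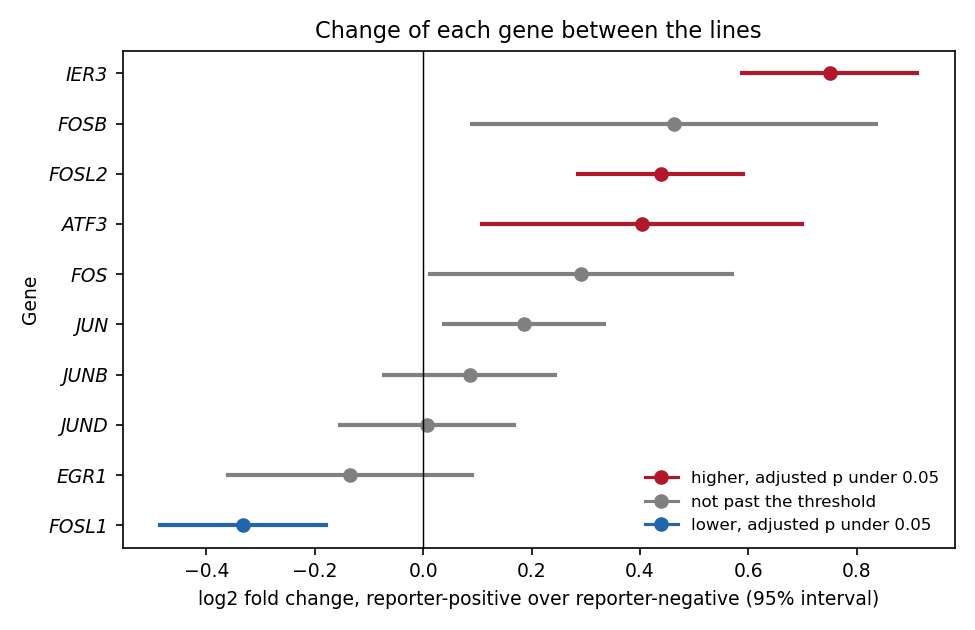
Log2 fold change of each gene, reporter-positive over reporter-negative, as points with 95% intervals from the edgeR standard error, ordered by size. IER3 at 0.75, FOSL2 at 0.44 and ATF3 at 0.40 pass as higher and FOSL1 at -0.33 as lower, while FOSB at 0.46 has a wider interval and does not pass.

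Promoter sequences from RefSeq (GRCh38.p14; 250 bases before to 50 after the transcript start) were found for 8 of the 10 genes, 9 promoters in all because ATF3 has a pair. FOSL1 and IER3 were not searched. They are shown because AP-1 genes are known to be controlled by AP-1 itself and by CREB, ATF and SRF factors. The stretches below are 30 bases each, read on the strand of the gene, with the motif in capitals.
FOSL2, AP-1 site TGACTCA, chr2:28392851-28392880: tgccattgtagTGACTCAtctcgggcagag
JUN, AP-1-like site TGACATCA, chr1:58784096-58784125: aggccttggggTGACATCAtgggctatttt
ATF3, AP-1-like site TGACATCA, chr1:212565273-212565302: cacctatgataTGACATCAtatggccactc
JUND, CRE TGACGTCA, chr19:18281804-18281833: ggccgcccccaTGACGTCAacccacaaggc
EGR1, serum response element, chr5:138465364-138465393: gccggtcctgCCATATTAGGgcttcctgct
EGR1, serum response element, chr5:138465386-138465415: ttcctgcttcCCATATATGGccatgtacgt

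Of the 9 promoters, only that of FOSL2 held the AP-1 site TGACTCA (both strands searched), just after its transcript start. Of all 35116 promoters 4.95% hold that motif. No promoter of FOSL1, the gene that fell, was searched, so the 2 genes cannot be set side by side. Any link between a motif and a change was not tested. The AP-1-like site TGACATCA lay 67 bases before the start of JUN, which did not pass, and 123 bases before one start of ATF3, which did, and 2.61% of all promoters hold it. The CRE TGACGTCA, found at JUND and in 1.85% of all promoters, and the serum response element, found at EGR1 and in 1.29% of all promoters, lay at genes that did not pass. The TCF sites CTTTGAT and CTTTGTT, the NF-kappaB consensus and the EGR1 site GCGTGGGCG were in 0 of the 9 promoters, and 2.62%, 5.20%, 5.91% and 0.795% of all promoters hold them. TATAAA was found at FOS, FOSB, JUNB and the other ATF3 start (7.33% of all promoters), and the GC box GGGGCGGGG at JUND (15.7%). No match says only that these letters are not in this window.

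Other immediate early genes moved both ways. Of 41 tested, 11 rose and 9 fell, or 26.8% and 22.0%, beside 11.6% and 10.9% of all genes. Their median log2 fold change was -0.07, beside -0.0046 for all genes. Without the reporter-negative library numbered 1, 5 of them fell. TNFAIP3, an NF-kappaB feedback inhibitor gene, had 26.7 and 25.0 CPM in the reporter-positive and 10.4 and 10.6 CPM in the reporter-negative libraries (edgeR quasi-likelihood, Benjamini-Hochberg adjusted p = 4.04e-10). SGK1, a kinase gene, rose 1.76-fold, and CCN1, which encodes a matricellular protein induced by serum, rose 1.64-fold to 375 ± 23.1 CPM (SD, n = 2). KLF4 and KLF2, zinc finger factor genes, fell by 0.71 and 0.91 on the log2 scale. The relatives of EGR1, named after their values were seen, did not pass. EGR2, EGR3 and EGR4 were low, at 1.29, 0.369 and 0.196 CPM in the reporter-positive and 1.48, 0.328 and 0.315 CPM in the reporter-negative line. Also named after their values were seen were IER2, IER5 and IER5L, related early response genes that share with IER3 only the name. IER2, which overlaps another listed gene and is an early response gene that encodes a nuclear protein, fell by 0.24 on the log2 scale, and IER5 was at 58.4 ± 3.53 CPM in the reporter-positive and 52.4 ± 2.25 CPM in the reporter-negative line (SD, n = 2 each; edgeR quasi-likelihood, Benjamini-Hochberg adjusted p = 0.147). IER5L, which overlaps other listed genes, had 13.8 and 13.2 CPM in the reporter-positive and 19.0 and 21.5 CPM in the reporter-negative libraries, and fell by 0.59 on the log2 scale (edgeR quasi-likelihood, Benjamini-Hochberg adjusted p = 4.45e-05). DUSP2 was too low to test.

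The kinases and SRF or ETS factors upstream of immediate early genes gave more falls than rises. Of 34 tested, 4 rose and 8 fell, or 11.8% and 23.5%, with a median log2 fold change of -0.09. Of all genes 11.6% rose and 10.9% fell, so the share of risers was near that of all genes. SRF, the factor that binds serum response elements, had 44.1 and 46.5 CPM in the reporter-positive and 64.8 and 67.4 CPM in the reporter-negative libraries, well apart (edgeR quasi-likelihood, Benjamini-Hochberg adjusted p = 7.96e-06). On the log2 scale ELK3, an ETS factor that joins SRF on DNA, fell by 0.47. Without the reporter-negative library numbered 1, 4 of the list fell, and without the reporter-positive library numbered 1, 13 fell. MAP2K3, a kinase gene upstream of p38, rose 1.72-fold to 56.3 ± 1.53 CPM (SD, n = 2). MRTFB, a coactivator of SRF that overlaps TVP23CP2, rose 1.40-fold, and MAPK7, the ERK5 gene, which overlaps B9D1, rose 1.31-fold. Some called genes lie on the same chromosome. MAP2K3 and MAPK7, which rose, are on chromosome 17. Of those that fell, MAP2K1 and MAP2K5 are on chromosome 15, and SRF and MAPK14 on chromosome 6. The genes around them were not looked at, and the part of shared segments in these calls was not tested.

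Other basic leucine zipper genes that can pair with AP-1 proteins or bind similar sites rose in 7 and fell in 1 of 19 tested cases. These are 36.8% and 5.26%, beside 11.6% and 10.9% of all genes, and the median log2 fold change was 0.14. CREB5 had 24.6 and 24.8 CPM in the reporter-positive and 13.1 and 11.4 CPM in the reporter-negative libraries (edgeR quasi-likelihood, Benjamini-Hochberg adjusted p = 3.12e-08). CEBPD, a C/EBP factor gene of the inflammatory response, rose 1.96-fold and its relative CEBPB, which overlaps CEBPB-AS1, rose by 0.58 on the log2 scale. ATF7, which overlaps the readthrough gene ATF7-NPFF, fell by 0.38 on the log2 scale, a call lost without the reporter-negative library numbered 1. MAF was too low to test.

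Among 36 genes known as AP-1 targets, 18 rose, 5 fell and 13 did not pass, with a median log2 fold change of 0.39. Risers were 50% and fallers 13.9% of the list, beside 11.6% and 10.9% of all genes. Many of them are also inflammatory genes, the list was written with earlier results of these data known, and HBEGF and PHLDA1 are on the list of immediate early genes too. PTGS2, the inducible prostaglandin synthase gene, had 118 and 143 CPM in the reporter-positive and 17.9 and 16.1 CPM in the reporter-negative libraries (edgeR quasi-likelihood, Benjamini-Hochberg adjusted p = 9.96e-13). IL11, a cytokine gene of the interleukin 6 family, rose 4.82-fold to 76.0 ± 2.82 CPM (SD, n = 2), and CXCL8 was at 395 ± 56.1 CPM in the reporter-positive and 29.8 ± 0.205 CPM in the reporter-negative line (SD, n = 2 each). TIMP1, a metalloprotease inhibitor gene that overlaps SYN1, fell by 0.55, CCND1, which overlaps LTO1, fell by 0.50 and CAV1, the caveolin gene, fell by 0.49, all as log2 differences. The urokinase gene PLAU, a well known AP-1 target that overlaps another listed gene, named after its values were seen, was at 283 ± 1.45 CPM in the reporter-positive and 282 ± 11.5 CPM in the reporter-negative line (SD, n = 2 each).

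**Figure D4:**
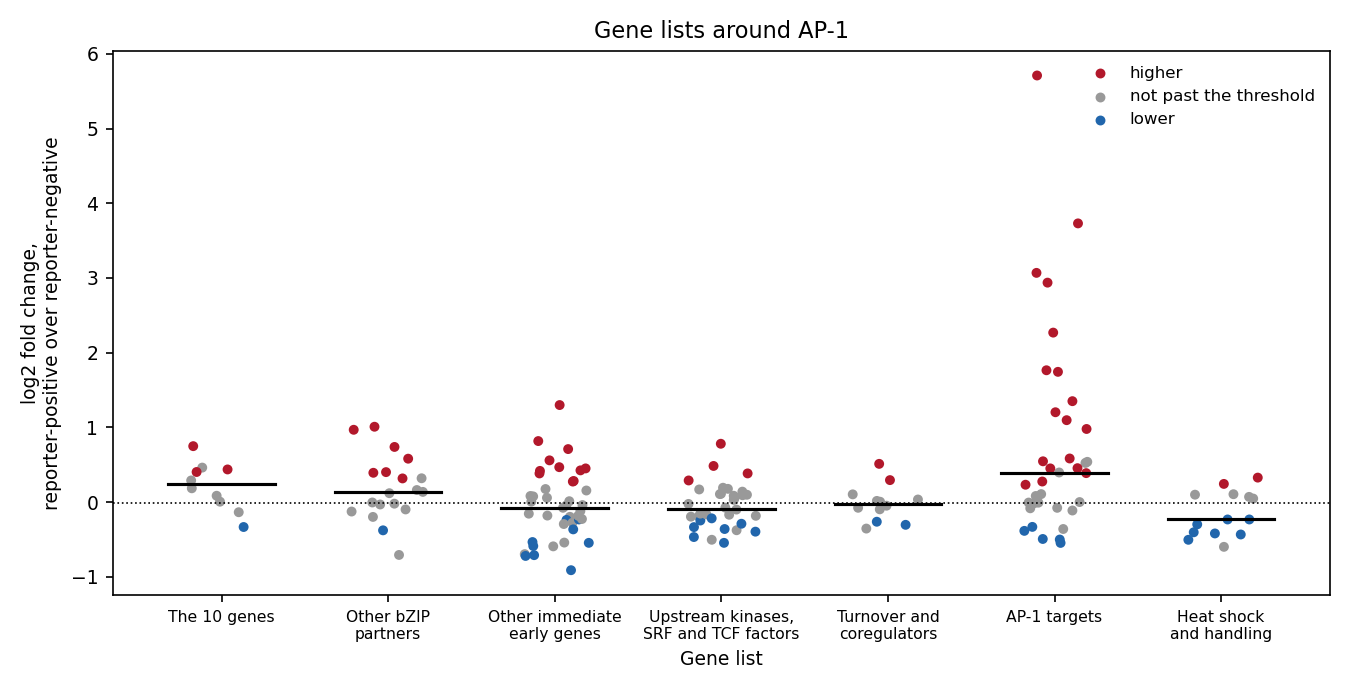
Log2 fold change, reporter-positive over reporter-negative, of the 10 genes and of the tested members of 6 lists, with 1 point per gene, bars at the median and a dotted line at the median of all genes tested. AP-1 targets have a median of 0.39 and reach far above the other lists, while heat shock genes have a median of -0.23.

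Heat shock genes, which respond to handling and temperature, were measured because such stress can also raise immediate early genes. Of 14 tested, 2 rose and 7 fell, or 14.3% and 50%, beside 11.6% and 10.9% of all genes. Their median log2 fold change was -0.23. HSP90AB1 had 513 and 575 CPM in the reporter-positive and 752 and 790.4 CPM in the reporter-negative libraries (edgeR quasi-likelihood, Benjamini-Hochberg adjusted p = 0.000239). BAG3, a co-chaperone gene, and HSPA1B, whose near-identical copy HSPA1A may share its reads and which overlaps ENSG00000285565, fell by 0.43 and 0.42 on the log2 scale. The chaperone genes HSPH1 and HSPD1, of which HSPD1 overlaps HSPE1-MOB4, rose 1.26-fold and 1.18-fold. Without the reporter-negative library numbered 1, 0 of these genes rose and 1 fell, the calls of BAG3 and HSPA1B being lost, and without the reporter-negative library numbered 2, 0 rose and 4 fell. The part of these differences in the levels of the 10 genes was not tested.

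**Figure D5:**
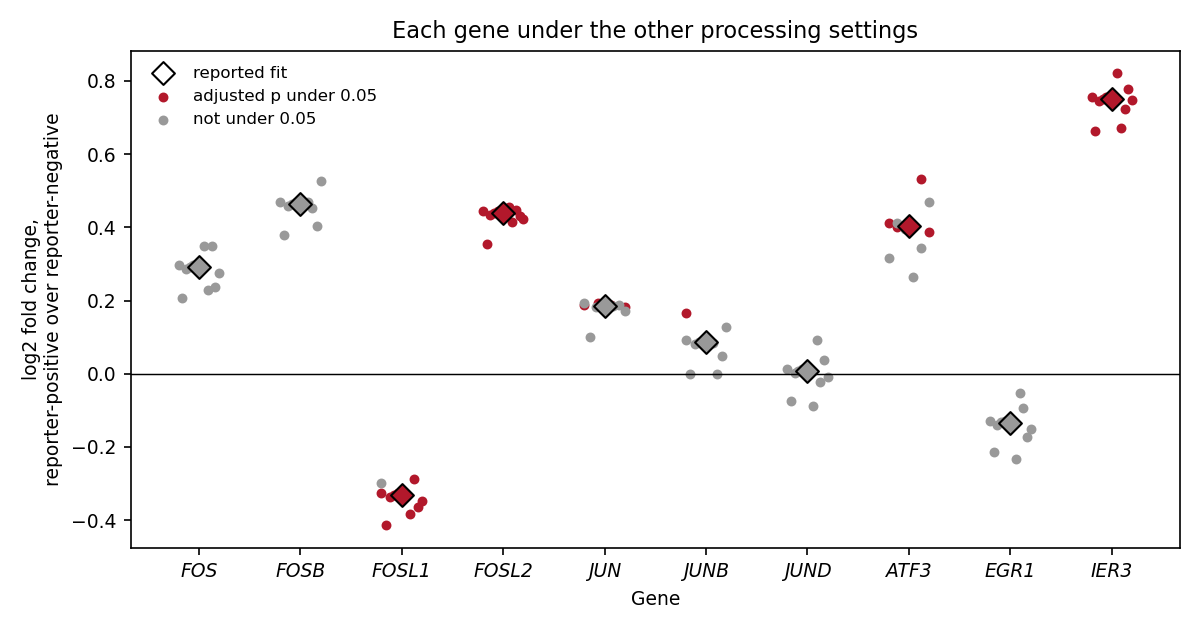
Log2 fold change of each of the 10 genes in the reported fit (diamonds) and under the other settings (points), red where the adjusted p is under 0.05. IER3 and FOSL2 are red throughout, FOSL1 loses its call in 1 setting and ATF3 in 6, and JUNB and JUND lie on both sides of 0.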

How the data were processed

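Gene expression was measured by RNA sequencing of total RNA in 2 libraries of each line. The authors deposited raw read counts per Ensembl gene ID, which were used as they stand, and 0 columns of sample values were left out. HISAT2, Bowtie2, DESeq2 and the build hg19 are named per the submitters' processing notes, and the sources used here do not give the counting tool, its annotation or its use of strand. The 43714 IDs are all in GENCODE release 29 (GRCh38), which gave positions and lengths. In 1358 of 1358 cases of a gene with at least 100 counts in each library lying in a host without shared exons, the host's count was at least as high in every library, on either strand, so counts cover gene spans with introns.

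The lines were compared by edgeR 4.0.16 under R 4.3.3 (TMM scaling, filterByExpr with minimum count 10 and minimum total 15, robust quasi-likelihood, line as the only term), with Benjamini-Hochberg adjustment at 0.05. Standard errors were taken from the F statistic. Simulated counts with known changes were used to check the test. The 10 genes, the 6 lists and the motifs were chosen with earlier results of these data known, and the motif TGACATCA was added after the promoters were seen. Named from each list were up to 3 risers and 3 fallers with the smallest adjusted p; 1 gene so chosen is not reported here. Other settings were scaling by RLE or by total counts, all counted genes or those with 1 CPM in at least 2 libraries, limma-voom (limma 3.58.1), DESeq2 1.42.0, the library number as a block, each library left out, and genes without an overlapping gene. Taking away the counts of overlapping genes was added after the data were seen. Shares used Python 3.11.15 with scipy 1.17.1. Same-line libraries were not duplicates, with chi-square over degrees of freedom of 17.1 in the reporter-positive and 32.8 in the reporter-negative line.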

Additional observations from a re-analysis of the deposited data

How the results depend on the processing

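IER3 and FOSL2 stayed higher and past the threshold under the 12 settings run for them, with log2 fold changes from 0.66 to 0.82 and from 0.35 to 0.46. Their settings leave out the fit to genes without an overlapping gene and include the later added one with overlapping genes' counts taken away. FOSL1 ranged from -0.41 to -0.29 and passed in 11 of 12. Leaving out 1 library gave -0.38 to -0.29 for FOSL1, 0.27 to 0.53 for ATF3, 0.18 to 0.19 for JUN, -0.0011 to 0.17 for JUNB and -0.089 to 0.091 for JUND. ATF3 had 0.32 with total count scaling, 0.41 with DESeq2 and 0.39 with limma-voom, without passing. JUN passed at 0.19 with DESeq2 and at 0.19 with the 1 CPM filter. With total count scaling JUNB was at -0.0015 and JUND at -0.075, and among genes without an overlapping gene JUND was at -0.0089. The cause of these shifts was not tested.

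The count of higher genes among the 10 was 2 to 5 with a library left out, and of lower genes 0 to 1; the 5 came without the reporter-positive library numbered 1 and the 0 without the reporter-negative library numbered 1. All higher genes were 2333 to 4704 and all lower genes 2025 to 4457 with a library left out, 2270 higher with total count scaling, and 1111 and 1093 among the 9888 genes without an overlapping gene, of which 1 of the 10 was higher. That smaller fit leaves out FOSB, FOSL2, JUNB and IER3 and every list gene that overlaps another gene. Its counts are therefore of fewer genes and cannot be set beside those of the full lists as lost calls. The higher and lower counts in it were 3 and 0 for bZIP partners, 10 and 1 for AP-1 targets, 0 and 1 for turnover genes and 1 and 3 for upstream genes. In the same fit 7 other immediate early genes rose and 7 fell, and 1 heat shock gene rose and 5 fell. With total count scaling 1 turnover gene and 1 heat shock gene rose, and 2 bZIP partners and 13 upstream genes fell; 3 bZIP partners fell with the 1 CPM filter. With a library left out, falls were 0 to 3 for bZIP partners, 5 to 13 for other immediate early genes, 4 to 13 for upstream genes, 0 to 3 for turnover genes, 3 to 5 for AP-1 targets and 1 to 7 for heat shock genes, and rises were 1 to 2 for turnover and 0 to 3 for heat shock genes. The fewest falls came without the reporter-negative library numbered 1, tied for turnover genes and AP-1 targets with the one numbered 2.

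The JUN family's share of the 7 genes was 2.02 percentage points higher in the reporter-positive line per kb of exon, 0.495 per kb of span and -1.73 without division by length. The labels give both lines the library numbers 1 and 2. Deviations of same-numbered libraries correlated at -0.03 across genes, so no shift common to them was seen. With 2 libraries per line this cannot show whether same-numbered libraries were handled together. With the number as a replicate block 4175 genes were higher and 4051 lower, 2 bZIP partners fell, and the calls of the 10 genes were the same. With 2 libraries per line the spread is estimated largely from other genes, which limits what can be said of a gene near the threshold.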

Other observations

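Genes that control the stability or activity of AP-1 proteins gave 2 higher and 2 lower of 12 tested, or 16.7% each way beside 11.6% and 10.9% of all genes, with a median log2 fold change of -0.02. USP28, which encodes a deubiquitinase that protects JUN, rose 1.43-fold to 27.3 ± 0.708 CPM (SD, n = 2), and COP1, a ubiquitin ligase gene, rose 1.23-fold. ITCH, another ubiquitin ligase gene, and MEN1, whose product menin binds JUND, fell by 0.30 and 0.26 on the log2 scale. The calls of ITCH and MEN1 were lost without either reporter-negative library, and that of COP1 without the one numbered 2 and with total count scaling. FBXW7, a ubiquitin ligase gene known for JUN turnover and named after its values were seen, was at 42.2 ± 0.704 CPM in the reporter-positive and 39.3 ± 0.233 CPM in the reporter-negative line (SD, n = 2 each).

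EGR1 did not pass, and lower genes were frequent in a wide window around it but not close to it. Of the 226 tested genes within 5 Mb of it, 72 fell and 8 rose in the reporter-positive line, with a median log2 fold change of -0.20. These are 31.9% and 3.54%, beside 10.9% and 11.6% of all genes. Of the 41 within 1 Mb, 3 fell and 1 rose, or 7.32% and 2.44%, with a median of -0.0019. Overlapping genes share reads, so these genes are not independent of one another.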
